A study of Homo sapiens with 6 samples.

Results

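The genes of the interleukin-6 (IL-6) family were measured by RNA-seq in T24 cells, an established human bladder cancer cell line. The 9 genes were chosen by symbol, and all 9 were found among the 58174 genes listed in each sample. They are 4 ligands (IL6, IL11, LIF and CLCF1) and 5 receptor chains (IL6R, IL6ST, LIFR, OSMR and IL11RA). A group of 3 samples carried a shRNA against UBC9, the only E2 enzyme that attaches SUMO to proteins (shRNA-UBC9), and 3 samples carried a scrambled control shRNA (shRNA-NC). The cells of both groups were transduced with lentivirus and selected with puromycin, per the study's methods. UBC9 was targeted by 1 shRNA, so in these samples an effect of the hairpin itself and an effect of the loss of UBC9 cannot be told apart. The study also reports higher IL6 expression in another bladder cancer cell line, after UBC9 knockdown and after a chemical inhibitor of SUMO attachment. It further reports higher IL-6 protein after UBC9 knockdown. None of these measurements is part of these data.

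IL-6 family cytokines share a receptor chain, gp130, which IL6ST encodes. IL-6 first binds IL6R and IL-11 first binds IL11RA, and either complex then recruits gp130. LIF signals through LIFR paired with gp130, CLCF1 uses CNTFR with LIFR and gp130, and OSMR pairs with gp130 for oncostatin M. The receptors carry no kinase of their own, and JAK kinases bound to them phosphorylate STAT3, which switches on target genes such as SOCS3, a feedback inhibitor. In tumours of epithelial origin these cytokines are made by cancer cells as well as by stromal and immune cells.

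IL6 lies on chromosome 7 (GRCh38, bases 22725884 to 22732002, plus strand, in GENCODE release 44), and IL11 lies on chromosome 19 (bases 55364382 to 55370463, minus strand). Their upstream regions are shown because IL6 had the largest change of the family and IL11 a far smaller one. The RefSeq promoter table held an entry for 7 of the 9 genes, and LIF and CLCF1 had none. The bases below run 5′ to 3′ from 250 bases upstream of the RefSeq start, for IL6 without the last 53 bases, which lie in an annotated exon, and capitals mark the matches to the motifs searched.
IL6, chr7:22726950-22727146, plus strand: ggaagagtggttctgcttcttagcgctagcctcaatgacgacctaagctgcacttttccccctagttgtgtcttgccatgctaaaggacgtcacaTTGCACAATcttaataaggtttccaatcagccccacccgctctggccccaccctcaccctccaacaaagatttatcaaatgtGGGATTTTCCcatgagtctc
IL11, chr19:55370464-55370713, minus strand: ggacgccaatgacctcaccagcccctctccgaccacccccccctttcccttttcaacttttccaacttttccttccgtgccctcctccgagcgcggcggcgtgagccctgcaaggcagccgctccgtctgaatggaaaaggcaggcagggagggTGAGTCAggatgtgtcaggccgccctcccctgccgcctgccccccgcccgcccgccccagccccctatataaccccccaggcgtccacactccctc

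Both strands of the 250 bases before each RefSeq start were searched for 4 motifs. The NF-kB motif (GGG, any 2 bases, TTTCC) was found in IL6, at -73 to -64 from the start, and not in the other members with an entry, against 1.73% of all 35116 promoters in the table. The C/EBP motif (TTGCNNAAT) was found in IL6 at -155 to -147 and in 1 of the 3 LIFR promoters, against 2.39% of all promoters. IL11 held the AP-1 motif (TGANTCA) at -96 to -90, which 6.57% of all promoters hold. The STAT motif (TTCNNNGAA) was found in 2 of the 3 LIFR promoters and in none of the others, against 6.57% of all promoters. No match overlapped another in the bases printed. A match describes letters in this window only, and no factor's binding was measured.

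The files give RPKM, that is reads scaled to the length of the gene and to the mapped reads of the sample, so that levels of different genes can be compared. Each value is a multiple of what 1 read is worth in its gene and sample. From these steps whole reads were recovered for 100% of the 12428 tested genes, with a tolerance of 0.01 read, and they summed to between 26011973 and 32835357 reads per sample. Of 6 epithelial markers, KRT7, KRT8, KRT18 and KRT19 were abundant and CDH1 was at or near 0. The summed level of the 6 was 938 to 1108 RPKM in shRNA-NC and 426 to 563 RPKM in shRNA-UBC9. Each keratin was lower in every shRNA-UBC9 sample. EPCAM was low and had a higher mean after knockdown, with 0.412 to 0.986 RPKM in shRNA-NC and 0.732 to 2.51 RPKM in shRNA-UBC9. Its groups overlapped, and the change did not pass the test (log2 fold change 0.996, adjusted p = 0.0984 from limma). Of 8 urothelial markers, the 5 uroplakins were below 0.5 RPKM in every sample and the 3 tested genes were lower in shRNA-UBC9, PPARG and FOXA1 as DEGs (log2 fold changes of -2.15 and -1.08) and GATA3 by less (-0.79, adjusted p = 0.016 from limma), and the 8 summed to 33.5 to 42.3 RPKM in shRNA-NC and 12.8 to 15.6 RPKM in shRNA-UBC9. The 8 leukocyte markers summed to 0.675 to 1.14 RPKM in shRNA-NC and 0.792 to 1.39 RPKM in shRNA-UBC9, with MS4A1 at 0. The 4 endothelial markers summed to 2.64 to 3.26 and 0.338 to 1.07 RPKM, and the 5 fibroblast markers to 0.294 to 0.545 and 0.699 to 1.11 RPKM. Most of the endothelial sum was CDH5, a down-regulated DEG (log2 fold change -2.20, adjusted p = 0.00288 from limma). PECAM1, VWF and KDR had at most 0.0707 RPKM. Most of the fibroblast sum was COL1A1. The part of the markers that moved in the results below was not tested. In bulk RNA, fewer cells that express a gene and less RNA per cell cannot be told apart.

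Knockdown of UBC9 was accompanied by higher RNA of the ligands IL6, LIF and IL11 and of the receptor chains OSMR and IL6ST, and by lower RNA of IL11RA. CLCF1 and LIFR did not pass the test, and IL6R was low in both groups and was left out by the filter. The test was limma on log2(RPKM + 0.1), run on all genes that reached 0.5 RPKM in 3 or more samples, with Benjamini-Hochberg adjustment, and differentially expressed genes (DEGs) had an adjusted p below 0.05 and a |log2 fold change| above 1. A fold change on this scale understates the change of low genes. Of the 9 genes, 8 passed the filter, each with an RPKM of at least 0.5 in all 6 samples, and IL6R did not. IL6, LIF and OSMR were DEGs, so 3 of the 8 tested members were up-regulated, while 5.20% of all tested genes were, and 0 were down-regulated, against 2.70% of all tested genes. With the adjusted p alone, 5 of the 8 were higher and 1 was lower in shRNA-UBC9, against 18.8% and 18.0% of all tested genes. Every shRNA-UBC9 sample lay above every shRNA-NC sample for 5 of the 8 and below for 1, against 25.7% and 25.4% of all tested genes. The median log2 fold change of the 8 was 0.79, and that of all tested genes was 0.005. The labels do not say whether the 3 samples of a group came from separate cultures, so the p-values measure the spread between these samples, which may be technical.

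**Figure D1:**
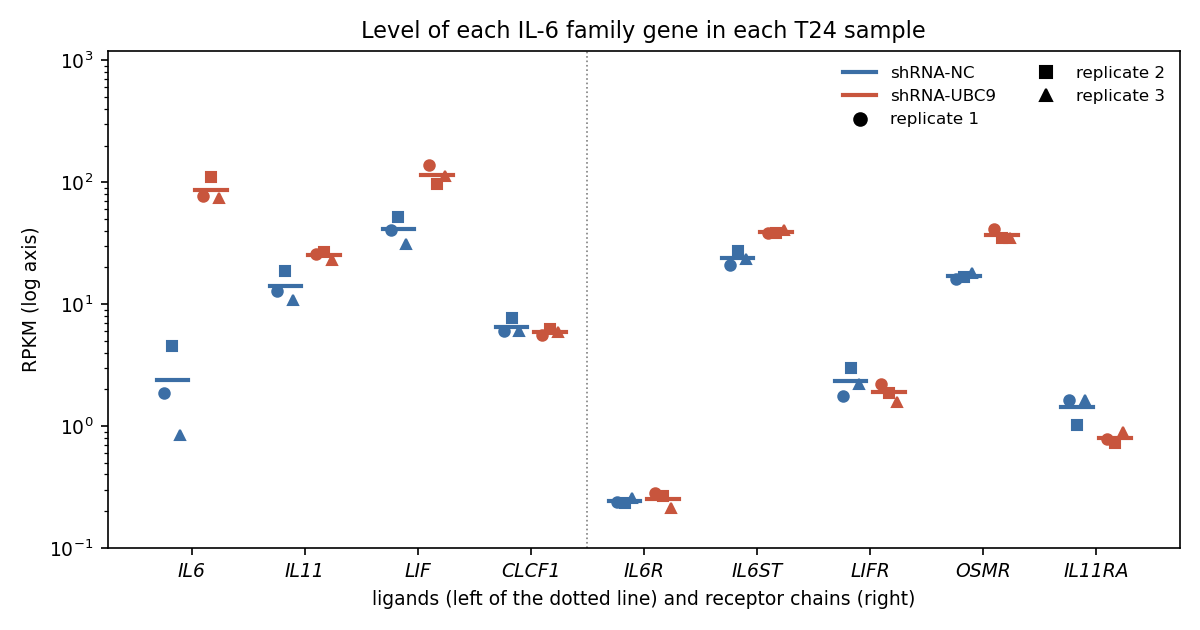
RPKM of each gene on a log axis in the 3 shRNA-NC (blue) and 3 shRNA-UBC9 (red) samples, with replicates 1, 2 and 3 as circles, squares and triangles and each group's mean as a line. The groups do not overlap for IL6, IL11, LIF, IL6ST, OSMR and IL11RA, and they overlap for CLCF1, IL6R and LIFR.

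IL6 encodes a cytokine that induces the acute-phase response. It had 1.88, 4.49 and 0.843 RPKM in shRNA-NC replicates 1, 2 and 3 and 76.7, 109.4 and 73.8 RPKM in shRNA-UBC9. The lowest shRNA-UBC9 sample was far above the highest shRNA-NC sample, and the shRNA-NC samples differed widely among themselves. These levels rested on 116, 322 and 59 reads in shRNA-NC and on 5725, 7979 and 4308 reads in shRNA-UBC9. The log2 fold change was 5.38 (SE 0.48, 95% interval 4.28 to 6.49, adjusted p = 0.000182 from limma), the 19th highest of the 12428 tested genes. In shRNA-NC the mean level of IL6 was above that of 25.8% of the tested genes, and in shRNA-UBC9 above that of 96.9%. Without shRNA-NC replicate 2 the log2 fold change was 5.97, and without shRNA-NC replicate 3 it was 4.82, which brackets the values of all fits that left out 1 sample.

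LIF encodes leukemia inhibitory factor, known for holding mouse embryonic stem cells undifferentiated. It had 40.5, 52.2 and 31.3 RPKM in shRNA-NC and 137.7, 96.3 and 113.3 RPKM in shRNA-UBC9. It was the highest of the 9 genes by mean level in both groups, and every shRNA-UBC9 sample was above every shRNA-NC sample. On the log2 scale the change was 1.50 (SE 0.19, 95% interval 1.05 to 1.95, adjusted p = 0.000905 from limma).

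IL11 encodes a cytokine of the same receptor system that acts on epithelium, bone and fibroblasts. It had 12.9, 18.8 and 10.9 RPKM in shRNA-NC and 25.7, 26.6 and 23.0 RPKM in shRNA-UBC9, again with no overlap. The log2 fold change of 0.85 (SE 0.18, 95% interval 0.43 to 1.27, adjusted p = 0.00814 from limma) was below the fold limit for a DEG. Without shRNA-NC replicate 2, the control with the highest IL11 level, it was 1.07 and IL11 passed the limit.

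CLCF1 encodes cardiotrophin-like cytokine factor 1, a neurotrophic cytokine. It had 5.97, 7.63 and 5.99 RPKM in shRNA-NC and 5.59, 6.21 and 5.87 RPKM in shRNA-UBC9, and the groups overlapped. The log2 fold change was -0.14 (95% interval -0.41 to 0.13, adjusted p = 0.381 from limma), so a change of more than 2-fold in either direction lay outside the interval.

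IL6ST, the shared chain gp130, had 20.8, 27.3 and 23.6 RPKM in shRNA-NC and 38.2, 38.7 and 40.9 RPKM in shRNA-UBC9. The 3 shRNA-UBC9 samples lay close together and above all controls. The log2 ratio of the groups was 0.72 (SE 0.11, 95% interval 0.47 to 0.97, adjusted p = 0.0018 from limma), and the mean level was 1.64 times that of shRNA-NC.

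OSMR, the chain used by oncostatin M and, with IL31RA, by IL-31, had 16.1, 16.7 and 18.2 RPKM in shRNA-NC and 41.1, 34.7 and 34.6 RPKM in shRNA-UBC9. It was the only receptor chain among the DEGs, with a log2 fold change of 1.11 (SE 0.10, 95% interval 0.88 to 1.33, adjusted p = 0.000182 from limma). The controls differed little, and the fits that left out 1 sample gave 1.03 to 1.16.

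LIFR, which LIF and CLCF1 use, had 1.77, 3.01 and 2.22 RPKM in shRNA-NC and 2.22, 1.88 and 1.57 RPKM in shRNA-UBC9. The groups overlapped, and the log2 fold change of -0.28 (95% interval -0.74 to 0.19) did not pass the test (adjusted p = 0.318 from limma).

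IL11RA, the chain specific to IL-11, had 1.62, 1.02 and 1.65 RPKM in shRNA-NC and 0.786, 0.724 and 0.896 RPKM in shRNA-UBC9. It was the only member lower in every shRNA-UBC9 sample, on 151 to 238 reads per sample in shRNA-NC and 108 to 121 reads in shRNA-UBC9. Its change was -0.74 on the log2 scale (SE 0.20, 95% interval -1.21 to -0.27, adjusted p = 0.0236 from limma). This call was lost in 3 of the 6 fits that left out a sample: the adjusted p from limma was 0.0837 without shRNA-NC replicate 1, 0.0921 without shRNA-NC replicate 3 and 0.0726 without shRNA-UBC9 replicate 2.

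IL6R, the chain specific to IL-6, had 0.239, 0.233 and 0.256 RPKM in shRNA-NC and 0.279, 0.264 and 0.214 RPKM in shRNA-UBC9. It was the lowest of the 9 genes in every sample and rested on 39 to 65 reads per sample. When all genes above 0 in any sample were tested, the log2 fold change was 0.04 (95% interval -0.39 to 0.46, adjusted p = 0.917 from limma). No difference passed the test.

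**Figure D2:**
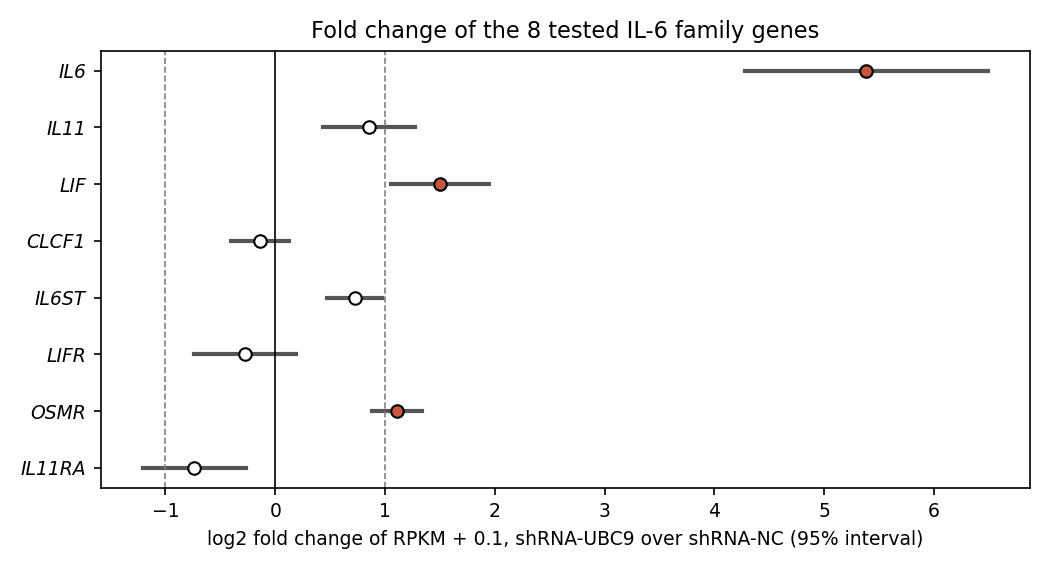
Log2 fold change of RPKM + 0.1 between shRNA-UBC9 and shRNA-NC for the 8 tested genes, with the 95% interval from limma as a line; filled points are DEGs and dashed lines mark the fold limit. IL6 stands at 5.38, while the other 7 lie between -0.74 and 1.50.

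By mean level the order in shRNA-NC was LIF, IL6ST, OSMR, IL11, CLCF1, IL6, LIFR, IL11RA and IL6R. OSMR and IL11 overlapped in their ranges over the 3 samples, and so did IL6 and LIFR, while the other neighbours did not. In shRNA-UBC9 IL6 moved from 6th to 2nd, the order of the other 8 genes stayed the same, and LIF overlapped with IL6 and IL6ST with OSMR. Within a sample, the difference of log2(RPKM + 0.1) between IL6 and LIF was -4.36, -3.51 and -5.06 in shRNA-NC and -0.84, 0.18 and -0.62 in shRNA-UBC9. The means differed by 3.88, and shRNA-UBC9 replicate 2 was the only sample in which IL6 exceeded LIF. The two-sided exact permutation test gave p = 0.1, the smallest that 3 samples against 3 allow.

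IL6 made up 3.07%, 5.40% and 1.72% of the summed RPKM of the 4 ligands in shRNA-NC and 31.2%, 45.9% and 34.2% in shRNA-UBC9. The share of IL11 was 21.0% to 22.6% in shRNA-NC and 10.5% to 11.2% in shRNA-UBC9, although the level of IL11 was higher there. LIF held 62.8% to 66.2% in shRNA-NC and 40.4% to 56.0% in shRNA-UBC9. The ligand sum was 49.0 to 83.2 RPKM in shRNA-NC and 216.0 to 245.8 RPKM in shRNA-UBC9. The sum of the 5 receptor chains was 40.5 to 48.3 RPKM in shRNA-NC and 76.2 to 82.6 RPKM in shRNA-UBC9. IL6ST and OSMR supplied most of the receptor sum in every sample, and IL6R supplied 0.274% to 0.589% of it.

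**Figure D3:**
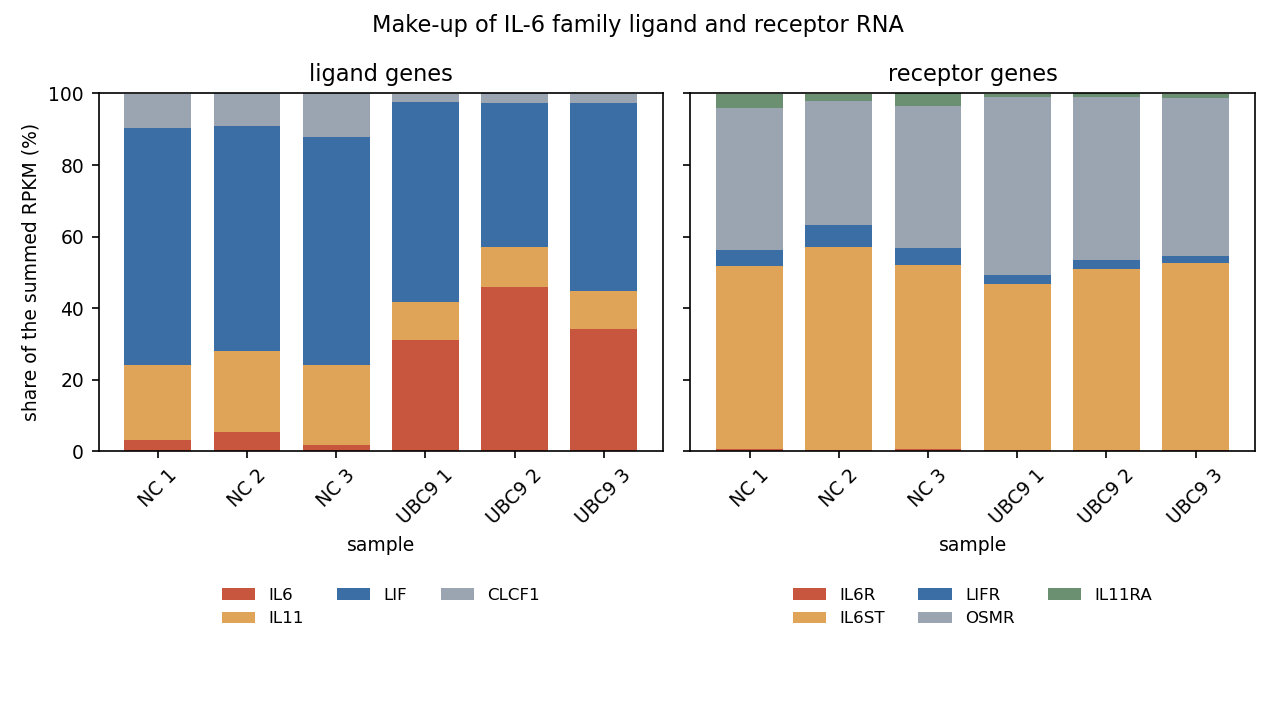
Share of each gene in the summed RPKM of the 4 ligands (left) and of the 5 receptor chains (right), in percent, as 1 bar per sample. The IL6 share is 1.72% to 5.40% in shRNA-NC and 31.2% to 45.9% in shRNA-UBC9; the IL6R share, at most 0.589%, is too small to be seen.

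IL6 and LIF were also set against a chain that each uses, as the difference of log2(RPKM + 0.1) within a sample. For IL6 minus IL6R it was 2.55, 3.79 and 1.40 in shRNA-NC and 7.66, 8.23 and 7.88 in shRNA-UBC9, a difference of the means of 5.35 (two-sided exact permutation test, p = 0.1). For LIF minus LIFR the values were 4.44, 4.07 and 3.75 in shRNA-NC and 5.89, 5.61 and 6.09 in shRNA-UBC9, a difference of 1.77 (two-sided exact permutation test, p = 0.1). Neither difference overlapped between the groups. As plain ratios of RPKM, with no pseudocount, IL11 stood at 6.62 to 18.5 times the RPKM of IL11RA in shRNA-NC and at 25.6 to 36.7 times in shRNA-UBC9. OSMR stood at 5.53 to 9.09 times LIFR in shRNA-NC and at 18.5 to 22.0 times in shRNA-UBC9, and IL6ST at 87.1 to 117.5 times and 136.9 to 190.9 times IL6R.

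Among the controls, replicate 2 had the highest level of 6 of the 9 genes (IL6, IL11, LIF, CLCF1, IL6ST and LIFR) and the lowest of IL6R and IL11RA. On the log2 scale it lay above the control mean by 1.17 for IL6, 0.44 for IL11, 0.37 for LIF, 0.20 for IL6ST, 0.23 for CLCF1 and 0.39 for LIFR. In shRNA-UBC9 no replicate led in this way: replicate 1 was highest for 4 genes, replicate 2 for 3 and replicate 3 for 2. Replicate 2 of shRNA-UBC9 had the highest IL6 level and the lowest LIF level of its group.

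The tested genes most like IL6 over the 6 samples, by the Euclidean distance between centred log2 profiles, were, from the nearest on, CXCL2, CXCL8, CXCL3, BCL2A1 and CXCL5, at distances of 0.79 to 1.04. All but BCL2A1, a BCL2 family gene, are chemokines that attract neutrophils, and the log2 fold changes of these 5 genes were 4.78 to 5.97. Among the 5 nearest to LIF were DUSP10 (0.27), N4BP3 (0.32), NRG1 (0.39) and NLRP3 (0.40), and nearest to IL11 were LACC1 (0.22), CLDN23 (0.25), USB1 (0.26), CASZ1 (0.26) and IL7 (0.28). The distance mixes the difference between the groups with the differences among replicates, and it is a description of 6 samples.

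Of the 7 other ligand-side genes of the family, 4 passed the filter. EBI3, a subunit of IL-27 and IL-35, was the DEG among them, with 0.104, 0.202 and 0.115 RPKM in shRNA-NC and 1.34, 1.22 and 0.883 RPKM in shRNA-UBC9 (log2 fold change 2.38, adjusted p = 0.000456 from limma). It passed the filter through shRNA-UBC9 alone, so its count as a DEG is no support for the list. CTF1, cardiotrophin 1, was higher with 1.38 ± 0.26 and 2.23 ± 0.38 RPKM (SD, n = 3 each; log2 fold change 0.65, adjusted p = 0.019 from limma). OSM, the ligand of OSMR, had at most 0.014 RPKM, and IL27, IL31 and CNTFR were listed at 0 in all samples. IL27RA, the highest of the other receptor chains, had 6.55 ± 1.67 and 5.26 ± 0.80 RPKM (SD, n = 3 each), and neither it nor IL31RA passed the test.

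Of the 13 genes that carry the signal from the receptors, all 13 were tested. The median log2 fold change of the list was -0.01. In it 1 gene, not named here, was an up-regulated DEG and 0 were down-regulated, against 5.20% and 2.70% of all tested genes. With the adjusted p alone 3 were higher and 2 were lower, against 18.8% and 18.0% of all tested genes. STAT3, the main STAT of this family, had 22.3 ± 2.7 and 25.0 ± 1.1 RPKM (SD, n = 3 each), and its log2 difference of 0.17 did not pass the test (adjusted p = 0.228 from limma). JAK1 was slightly higher (log2 fold change 0.31, adjusted p = 0.0398 from limma), and SHC1, the most abundant gene of the list, did not pass it either (log2 fold change 0.07, adjusted p = 0.621 from limma).

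Among the 15 feedback inhibitors, 13 were tested, and 1 DEG was higher and 1 was lower, against 5.20% and 2.70% of all tested genes. SOCS3, which binds gp130 and blocks JAK, had 9.33, 8.41 and 7.52 RPKM in shRNA-NC and 11.9, 20.7 and 20.5 RPKM in shRNA-UBC9. At 1.02 on the log2 scale (adjusted p = 0.00637 from limma) the difference was just past the fold limit and fell short of it in 6 alternatives, with 0.89 to 0.99, among them 0.95 without shRNA-NC replicate 3, 0.89 without shRNA-UBC9 replicate 2 and 0.90 without shRNA-UBC9 replicate 3. SOCS2, an inhibitor of growth hormone signalling, fell from 7.20 ± 0.45 to 2.53 ± 0.09 RPKM (SD, n = 3 each; log2 fold change -1.47, adjusted p = 3.06e-05 from limma). PTPN1, a tyrosine phosphatase and the most abundant of the list, was lower by less than the fold limit (log2 fold change -0.54, adjusted p = 0.00315 from limma).

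Of 28 genes known as STAT3 targets or acute-phase genes, 17 were tested, and 7 of these were DEGs with higher and 0 with lower expression, against 5.20% and 2.70% of all tested genes. With the adjusted p alone 12 were higher and 1, CCND1, was lower (log2 fold change -0.44, adjusted p = 0.0255 from limma), against 18.8% and 18.0% of all tested genes. The median log2 fold change of the list was 0.92. The DEGs with the largest changes were SAA1 with 4.13, CEBPB with 2.19, IER3 with 2.08, TIMP1 with 1.72, JUNB with 1.66 and VEGFA with 1.54, and SOCS3 was the seventh. TIMP1, an inhibitor of matrix metalloproteinases, had 90.9, 81.4 and 89.9 RPKM in shRNA-NC and 303.0, 356.8 and 220.2 RPKM in shRNA-UBC9 (adjusted p = 0.000244 from limma). The acute-phase gene SAA1 had 0.131, 1.85 and 0.0773 RPKM in shRNA-NC and 35.5, 6.05 and 1.85 RPKM in shRNA-UBC9, so that shRNA-NC replicate 2 nearly reached shRNA-UBC9 replicate 3. It would not have passed the filter on shRNA-NC alone, so it is no support for the list. Its log2 fold change was 3.01 without shRNA-UBC9 replicate 1, 3.49 without shRNA-NC replicate 3, 5.10 without shRNA-UBC9 replicate 3 and 5.22 without shRNA-NC replicate 2. Its adjusted p of 0.0236 from limma was 0.0839 without shRNA-NC replicate 1 and 0.0827 without shRNA-NC replicate 3, and its near copy SAA2 makes its reads uncertain. VEGFA, which encodes an angiogenic factor, had 2.90, 3.71 and 3.62 RPKM in shRNA-NC and 21.3, 6.35 and 7.53 RPKM in shRNA-UBC9, with replicate 1 far above the others. Its adjusted p of 0.0168 from limma was 0.0619 without shRNA-NC replicate 1. The liver acute-phase genes CRP, FGA and HAMP were listed at 0 in all samples. Several genes of this list are also targets of other factors.

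Of 14 transcription factors known to act at the IL6 promoter, all 14 were tested, 6 were up-regulated and 0 down-regulated DEGs, and 11 were higher with an adjusted p below 0.05 from limma, against 5.20%, 2.70% and 18.8% of all tested genes. The median log2 fold change was 0.89, and CEBPB and JUNB are counted in the STAT3 target list as well. The C/EBP factor CEBPB had 15.3 ± 1.8 and 70.6 ± 11.4 RPKM (SD, n = 3 each), and JUNB, an AP-1 subunit, had 12.9 ± 1.9 and 41.1 ± 6.1 RPKM (SD, n = 3 each). On the NF-kB side the log2 fold changes were 2.16 for NFKBIZ, 1.99 for RELB and 1.76 for NFKB2, with adjusted p-values of at most 0.00292 from limma. FOS had a log2 fold change of 1.94 at a low level of 1.54 ± 0.58 RPKM (SD, n = 3) in shRNA-UBC9, the group through which alone it passed the filter. Its place among the 6 and the 11 is therefore no support for the list. FOSL1, the most abundant of the list, had 87.7 ± 20.3 and 166.8 ± 26.6 RPKM (SD, n = 3 each; log2 fold change 0.94, adjusted p = 0.00595 from limma).

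Among 10 regulators of IL6 mRNA decay, 1 was an up-regulated and 1 a down-regulated DEG, against 5.20% and 2.70% of all tested genes. The median log2 fold change of the list was 0.01. ZC3H12A, an endonuclease that degrades IL6 mRNA, had 5.98, 7.47 and 2.65 RPKM in shRNA-NC and 31.5, 36.3 and 37.5 RPKM in shRNA-UBC9 (log2 fold change 2.81, adjusted p = 0.000522 from limma). ZFP36L2, of the family that binds AU-rich elements, fell from 15.2 ± 0.4 to 7.19 ± 1.55 RPKM (SD, n = 3 each; log2 fold change -1.09, adjusted p = 0.00121 from limma). ARID5A, which stabilizes IL6 mRNA, was higher by less than the fold limit (log2 fold change 0.96, adjusted p = 0.00156 from limma). KHSRP, the most abundant of these genes, did not pass the test (log2 fold change -0.30, adjusted p = 0.0664 from limma). Neither protease that sheds IL6R from the cell surface was a DEG: ADAM10 stood at 0.02 on the log2 scale (adjusted p = 0.877 from limma) and ADAM17 at -0.42 (adjusted p = 0.0423 from limma). Of the SUMO pathway genes, SUMO2, the most abundant, was slightly higher (log2 fold change 0.28, adjusted p = 0.019 from limma), and the E1 subunits SAE1 and UBA2 were lower (-0.50 and -0.32, adjusted p = 0.00532 and 0.0278 from limma).

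**Figure D4:**
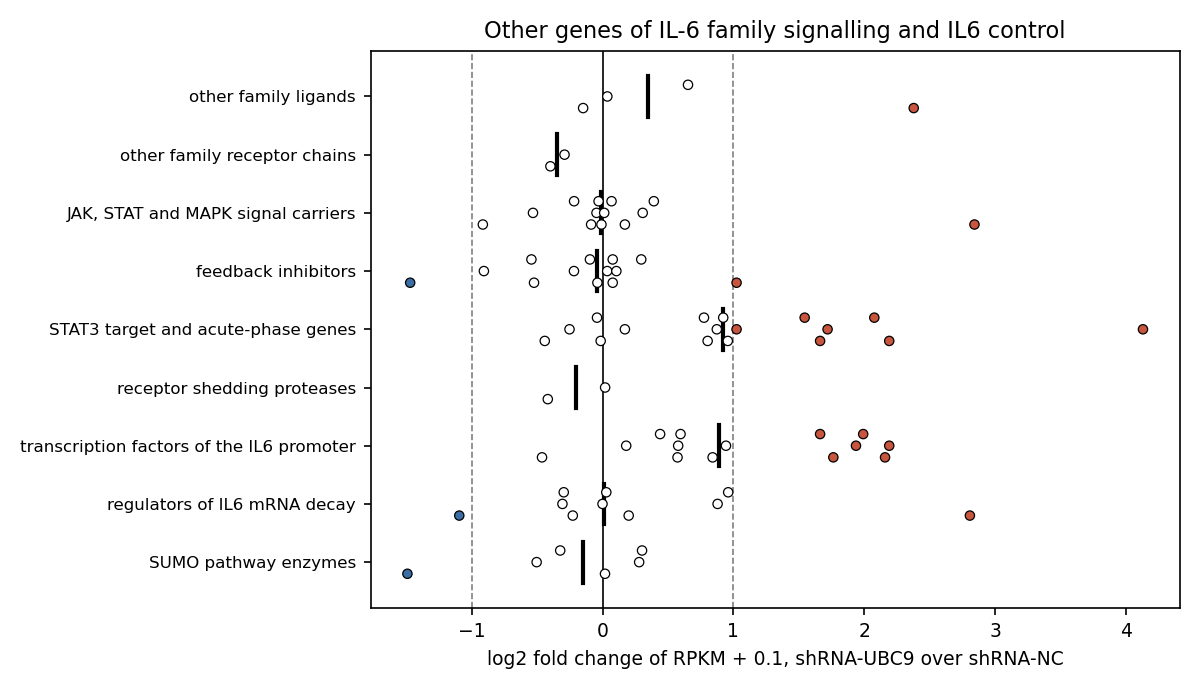
Log2 fold change of RPKM + 0.1 between shRNA-UBC9 and shRNA-NC for each tested gene of 9 lists, as 1 point per gene (red, up-regulated DEG; blue, down-regulated DEG) with the median of each list as a black bar. The medians of the STAT3 target and IL6 promoter lists are 0.92 and 0.89, and those of the signal carriers, feedback inhibitors and decay regulators are -0.01, -0.04 and 0.01.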

How the data were processed

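RNA-seq of T24 cells covered 3 shRNA-NC and 3 shRNA-UBC9 samples, grouped by their labels. The authors trimmed adaptors and then aligned the reads to GRCh38 in the CLC Biomedical Genomics Workbench, with default settings for the mapping. The deposited values are RPKM, for 58174 genes in each sample. The annotation release, the strand setting and the handling of reads with several mapping places are not given in the sources used here, so reads of LIFR and OSMR cannot be told apart from those of their antisense genes LIFR-AS1 and OSMR-AS1, which had at most 0.209 RPKM.

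RPKM is not a count, so limma 3.58.1 (R 4.3.3) was fitted to log2(RPKM + 0.1), with an intensity trend, over the 12428 genes that reached 0.5 RPKM in 3 or more samples. Benjamini-Hochberg adjustment ran over all of them, and DEGs had an adjusted p below 0.05 and a |log2 fold change| above 1. Whole reads were recovered from ratios of values between samples, up to a factor common to all 6 samples of a gene. Intervals are 95% intervals from limma. Differences of log2(RPKM + 0.1) between members within a sample were compared with exact permutation tests.

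The members and gene lists were chosen with earlier results of these data known. Genes named from a list are its DEGs (at most the 6 with the largest change), its most abundant tested gene and a few others (OSM, STAT3, JAK1, GATA3, CCND1, SAE1, UBA2, ADAM17, ARID5A and genes listed at 0) chosen after their values were seen. Some genes that this rule names, and the level of the targeted gene, are not reported here. Promoters are RefSeq's on GRCh38, and positions are from GENCODE release 44. The scripts were tested on simulated data. Alternatives were other pseudocounts, filters, scalings and thresholds, no intensity trend, a replicate block, each sample left out, and, added after seeing the data, limma voom on the recovered reads and a filter at 0.1 RPKM. Python 3.11.15, numpy 2.4.6, pandas 2.3.3, scipy 1.17.1 and matplotlib 3.10.9 were used.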

Additional observations from a re-analysis of the deposited data

How the results depend on the processing

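IL6, LIF and OSMR were DEGs under every alternative run except the filter of an RPKM of at least 1 in all 6 samples, which IL6 and IL11RA did not pass and which left 2 members called. Without a fold change limit 6 members, 44 of the 77 tested genes of the pathway lists and 4576 genes in all were called. The count of 981 DEGs was 552 with a pseudocount of 1 and 552 with that filter. Leaving out 1 sample gave 926 to 1065 DEGs, 3 to 4 members and 15 to 19 pathway genes, against 17 with all samples. The log2 fold change of IL6 was 4.81 with a pseudocount of 1 and 5.46 with limma voom on the recovered reads, and that of IL11RA was -0.42 with a pseudocount of 1. The adjusted p of IL11RA from limma was 0.0644 with no filter on low values. SAA1 lost its call with no filter (adjusted p = 0.0709 from limma) and with limma voom (0.069), and VEGFA with no filter (0.0534). The cause of these changes was not tested. Median scaling and quantile normalization moved the median of all tested genes to -0.037 and -0.043.

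Samples with the same replicate number did not deviate together (correlations of -0.367, 0.073 and -0.17 for numbers 1, 2 and 3), and not every sample correlated best with its own number. The highest correlation, 0.526, was across numbers, between shRNA-NC replicate 1 and shRNA-UBC9 replicate 3. Both had fewer recovered reads (27399740 and 26011973) than any other sample. Both also lacked reads of PTPRC, CD3D and CD3E, which every other sample had. A block by replicate number does not model such a link, and its cause was not tested. With the replicate block 974 DEGs and 3 members were called, and the block changed no member's call. Of the 3 within-sample log2 differences none changed direction, but with a sample left out the exact test cannot go below p = 0.2. IL6R rested on 39 to 65 reads per sample and IL6 in shRNA-NC on 59 to 322.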
